A study of Mus musculus with 8 samples.

Results

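The genes described here were 42 cell cycle genes, taken by symbol from the 33696 genes of the expression tables. A set of 19 S genes acts when DNA is copied, and a set of 23 G2/M genes acts when the copied chromosomes are condensed and pulled apart. Together they mark cells that are dividing. They were picked for their known roles, with earlier results of these data known, and the rule itself used no measured value. Their levels were followed in 7 classes of cells from brains with ependymoma, a childhood brain tumour, of mice given vehicle IgG (a control antibody) or mavrilimumab, which blocks the GM-CSF receptor at its alpha subunit. The classes were CD8 T cells, regulatory T cells (Treg), other CD4 T cells, natural killer (NK) cells, microglia, B cells and neural cells.

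A dividing cell passes through a fixed order of gene programs. Cyclin D and its kinases release E2F factors from the retinoblastoma protein, and E2F factors switch on the S genes that license, start and carry out DNA replication. In resting cells the DREAM complex holds these genes down. Later its MuvB core, joined by B-MYB and then FOXM1, and NF-Y act through CHR and CCAAT elements to switch on the G2/M genes, whose proteins drive entry into mitosis, build the spindle and trigger chromosome separation. T cells divide after their receptor meets antigen, microglia renew slowly in a healthy brain, and tumour cells of neural origin divide without such a trigger.

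All mice carried the alleles NestinCreERT2, Fus1 and RFPTdT, in which a tamoxifen-inducible Cre driven by Nestin regulatory sequence acts in neural stem and progenitor cells and the ZFTA-RELA fusion forms the tumour. They were assigned to treatment at 3 weeks of age, received either a single intrathecal dose of mavrilimumab at 5 mg/kg or the control IgG, and were followed to a humane endpoint. The labels give an age of 6 to 8 weeks for the dissociated tissue, while the study's text places the sampling of these cells at recurrence of the tumour. Each group had 2 single-cell libraries, each from cells of several tumours combined, so n = 2 per group and p-values measure the spread between pools, not between mice. The study's text describes the sorted cells as extravascular CD45+ cells free of Ter119, a gate that would remove neural cells, which lack CD45 (Ptprc). Since the libraries held neural cells all the same, in unequal number, shares of classes were not compared.

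Some facts about the libraries bear on every result. Between 24354457 and 148657643 UMIs (unique molecular identifiers, each counting 1 captured RNA molecule) were counted per library, and between 984 and 26746 cells were kept, fewest in vehicle IgG 1. Of the kept cells, 20.4% to 30.2% passed no class gate and 1.33% to 4.23% passed several gates; both were left out. Pairs of libraries shared between 0 and 60 cell barcodes. Markers that no gate used were highest in the classes they name for T cells, Treg, NK cells, microglia and neural cells. The class called B was doubtful: the summed level of Ms4a1, Pax5 and Ighm was 49670 CPM (UMIs per 1000000 UMIs of the class in a library) in mavrilimumab 1, 364 in vehicle IgG 2 and 1313 in mavrilimumab 2, while summed T cell markers there reached 137, 516 and 1125. Cells of the neural class, defined by no Ptprc UMI, numbered 15570 in vehicle IgG 2, 419 in mavrilimumab 2, 4 in vehicle IgG 1 and 2 in mavrilimumab 1, so they had no treatment test. The 3 T cell receptor libraries analysed carried, inside their files, sample names of the other treatment. By barcodes, the T cell receptor library labelled mavrilimumab 1 joined the expression library labelled mavrilimumab 2 (2491 of 2749 cells), and the one labelled mavrilimumab 2 joined mavrilimumab 1 (4867 of 5659 cells). The library labelled vehicle IgG 1 joined the expression library of the same label (182 of 193 cells). Joined in this way, the largest clone had 154 cells among 4573 with a clone in mavrilimumab 1, 30 among 2307 in mavrilimumab 2 and 3 among 171 in vehicle IgG 1. Every direction between treatments below rests on the labels as given.

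Promoters were searched for the elements named above, which some members hold and others do not, and are printed for the 2 S and 2 G2/M genes with most matches. RefSeq upstream sequences (GRCm38.p6, 250 bases before the most upstream start) were found for 17 of the 19 S genes and 20 of the 23 G2/M genes. They were searched on both strands for TTTCCCGC and TTTGGCGC (E2F), TTTGAA (CHR) and CCAAT (NF-Y). Capitals mark the matches in the sequences, and a match read on the other strand appears as GCGCCAAA, GCGGGAAA, TTCAAA or ATTGG. Mcm6 (a subunit of the replicative helicase; chr1:128359706-128359955, minus strand) held 2 E2F and 2 NF-Y matches. Mcm3 (another subunit of that helicase; chr1:20820313-20820562, minus strand) held 3 NF-Y matches, the same total as Mcm5, Mcm7 and Slbp, and was taken as the first of them in list order. Top2a (the topoisomerase that untangles sister chromatids; chr11:99024190-99024439, minus strand) held 2 CHR and 6 NF-Y matches. Ube2c (the ubiquitin carrier of the anaphase-promoting complex; chr2:164769679-164769928, plus strand) held 1 CHR and 6 NF-Y matches, 2 of which overlap on opposite strands.
Mcm6: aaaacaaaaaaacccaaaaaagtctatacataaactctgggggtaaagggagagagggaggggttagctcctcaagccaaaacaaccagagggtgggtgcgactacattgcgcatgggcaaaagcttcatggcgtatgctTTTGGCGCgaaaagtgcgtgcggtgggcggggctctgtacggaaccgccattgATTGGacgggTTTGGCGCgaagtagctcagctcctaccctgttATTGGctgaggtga
Mcm3: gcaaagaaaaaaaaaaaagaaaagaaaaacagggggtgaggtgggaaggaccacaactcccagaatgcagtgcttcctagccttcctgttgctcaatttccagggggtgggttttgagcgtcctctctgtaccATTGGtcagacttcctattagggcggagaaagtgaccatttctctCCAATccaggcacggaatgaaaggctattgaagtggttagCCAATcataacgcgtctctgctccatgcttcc
Top2a: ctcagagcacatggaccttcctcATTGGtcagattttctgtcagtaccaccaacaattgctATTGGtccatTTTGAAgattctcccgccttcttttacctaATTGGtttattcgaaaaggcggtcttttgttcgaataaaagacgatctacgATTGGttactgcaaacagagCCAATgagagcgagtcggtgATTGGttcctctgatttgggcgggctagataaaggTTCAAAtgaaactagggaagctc
Ube2c: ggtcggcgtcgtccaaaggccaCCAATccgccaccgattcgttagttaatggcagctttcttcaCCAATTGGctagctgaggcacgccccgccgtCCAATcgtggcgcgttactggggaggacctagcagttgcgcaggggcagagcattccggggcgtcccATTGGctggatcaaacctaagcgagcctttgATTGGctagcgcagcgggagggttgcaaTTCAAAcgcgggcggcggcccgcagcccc

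Among all 27025 promoters of this length, 1.354% held an E2F match, 16.3% a CHR match, 34.53% an NF-Y match and 5.758% both CHR and NF-Y. Of the S genes, 4 of 17 held an E2F match (Mcm5, Mcm6, Mcm7 and Cdc6), 3 a CHR match and 12 an NF-Y match. Of the G2/M genes, 0 of 20 held an E2F match, 7 a CHR match and 18 an NF-Y match. The same 7 G2/M genes (Mki67, Top2a, Cdk1, Ccnb2, Ube2c, Cdc20 and Kif11) held both CHR and NF-Y. These are counts of letters in a window, and binding was not measured.

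CD8 T cells, of which there were 63, 1730, 1841 and 1743 in vehicle IgG 1, vehicle IgG 2, mavrilimumab 1 and mavrilimumab 2, served as the reference class. Mki67, whose protein coats mitotic chromosomes, stood at 9.91 and 158 CPM in the vehicle IgG libraries and at 146 and 168 in the mavrilimumab libraries. Top2a stood at 27.5 and 189 in vehicle IgG, and at 165 and 190.0 in mavrilimumab. In both genes vehicle IgG 1, with 63 CD8 T cells, was far below the other 3 libraries, which differed little among themselves.

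Summed S genes stood less far below the others in that library, but single S genes varied. Pcna, the clamp that holds DNA polymerase on its template, was at 78.2 and 201 in vehicle IgG and at 183 and 209.8 in mavrilimumab. Mcm5, a further helicase subunit, was at 13.2 and 41.5 in vehicle IgG and at 71.8 and 75.1 in mavrilimumab. The groups thus did not overlap for Mcm5 and did for Pcna. The share of all genes whose groups did not overlap was not counted, so nothing is read from this. Uhrf1, which reads newly copied methylated DNA, was at 1.10 in vehicle IgG 1, which is below 3 UMIs, and at 34.0 to 42.4 in the other 3 libraries. As a ratio this gap was wider than that of Top2a, but it rests on that low count, and in CPM it was narrower. All 42 genes were lowest in the CD8 T cells of vehicle IgG 1, and 10 had no UMI there: Cdc6, which loads the helicase, and the G2/M genes Cdk1, Ccnb2, Ccna2, Birc5, Tpx2, Bub1, Nusap1, Ube2c and Ttk. None of the 42 was at 0 in the CD8 T cells of another library. In that library 3 UMIs, the most that a count of 0 allows, corresponded to 3.30 CPM.

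**Figure D1:**
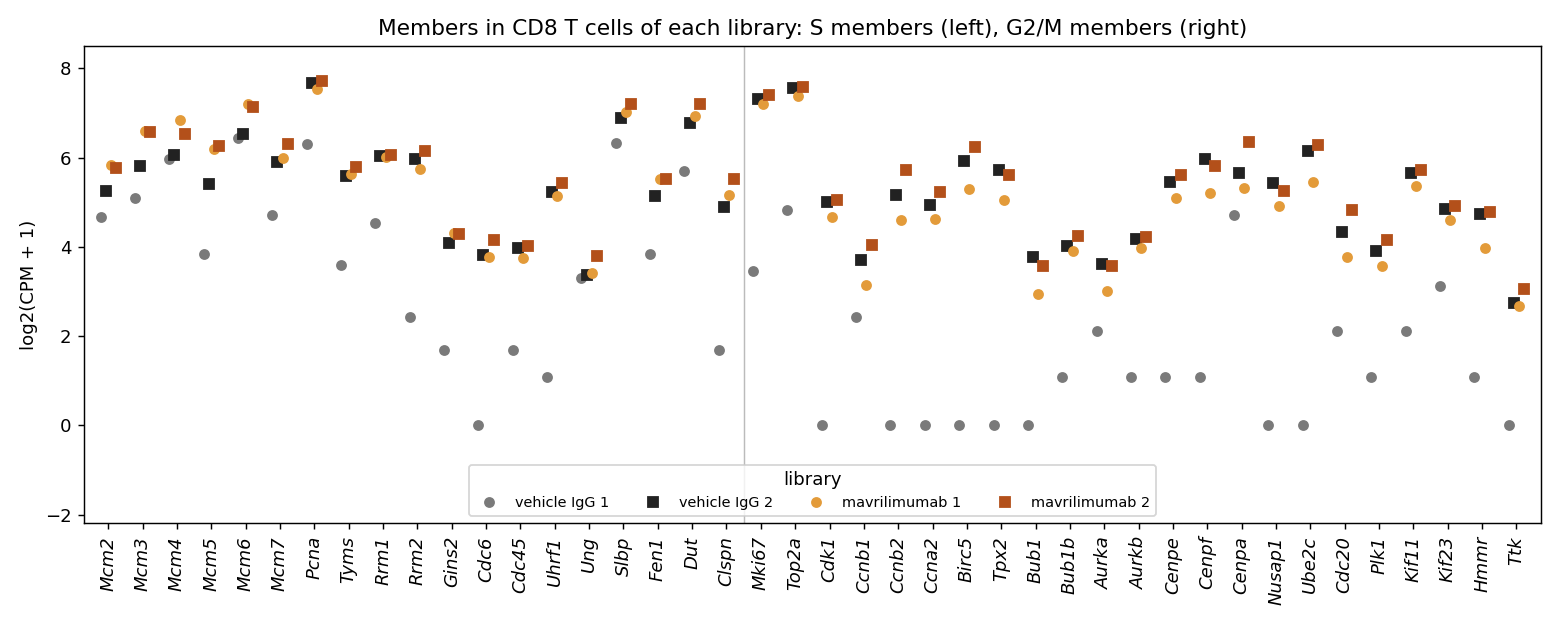
Level of each of the 42 genes in CD8 T cells, as log2(CPM + 1) on the vertical axis, with 1 point per library and S genes left of the grey line. Points of vehicle IgG 1 (63 cells) lie lowest for all 42 genes, and the points of the other 3 libraries lie close together.

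Summed over the genes of each program, CD8 T cells held 519 and 1099.8 CPM of S genes in vehicle IgG 1 and 2, and 1311 and 1416 in mavrilimumab 1 and 2. Their G2/M sums were 91.4 and 1028 in vehicle IgG, and 789.8 and 1127 in mavrilimumab. The ratio of G2/M to S was therefore 0.176, 0.934, 0.602 and 0.796, below 1 in every library. Neural cells had sums of 928 (S) and 1273 (G2/M) in vehicle IgG 2, and 677 and 758 in mavrilimumab 2. Their ratios, 1.37 and 1.12, were above those of CD8 T cells of the same libraries. By the sums given below, microglia also had a higher ratio than CD8 T cells in every library. RNA outside cells, described below, had a higher ratio than neural cells in vehicle IgG 2 and mavrilimumab 2. A ratio above that of CD8 T cells was thus not particular to neural cells.

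Microglia held the least S message of any class in vehicle IgG 1, vehicle IgG 2 and mavrilimumab 2, at 241, 523 and 406 CPM, and 398 in mavrilimumab 1, where the B class was lower at 269. Their G2/M sums were 78.7, 619, 536 and 371 in vehicle IgG 1, vehicle IgG 2, mavrilimumab 1 and mavrilimumab 2. In Treg the sums were 789, 889 and 565 for S and 1485, 552 and 129.8 for G2/M in vehicle IgG 2, mavrilimumab 1 and mavrilimumab 2. The highest G2/M sum of any class, 2479.5 in the NK cells of mavrilimumab 1, came from 20 cells. Other CD4 T cells ranged from 670.4 to 1017 for S and from 127 to 617 for G2/M.

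RNA outside cells held these genes too. In droplets with 10 to 100 UMIs, taken as empty, G2/M genes summed to 202, 1283, 1045 and 1757 CPM in vehicle IgG 1, vehicle IgG 2, mavrilimumab 1 and mavrilimumab 2, and S genes to 231, 865, 1057 and 1099.6. The S sum of CD8 T cells was above that of the empty droplets in all 4 libraries (124% to 225% of it), and the G2/M sum was below it in all 4 (45.2% to 80.1%). The S sums of other classes were mostly below the S sum of the empty droplets. They were 51.4% to 91.2% of it in Treg and 63.4% to 95.04% in NK cells. Other CD4 T cells held 71.5% to 96.2% of it in 3 libraries, against 290.3% in vehicle IgG 1. In microglia the S sum was 105% of it in vehicle IgG 1 and 36.9% to 60.4% in the other 3 libraries, and in neural cells 107% and 61.6% in vehicle IgG 2 and mavrilimumab 2. In the B class it was 166% in vehicle IgG 2, 25.4% in mavrilimumab 1 and 83.0% in mavrilimumab 2.

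**Figure D2:**
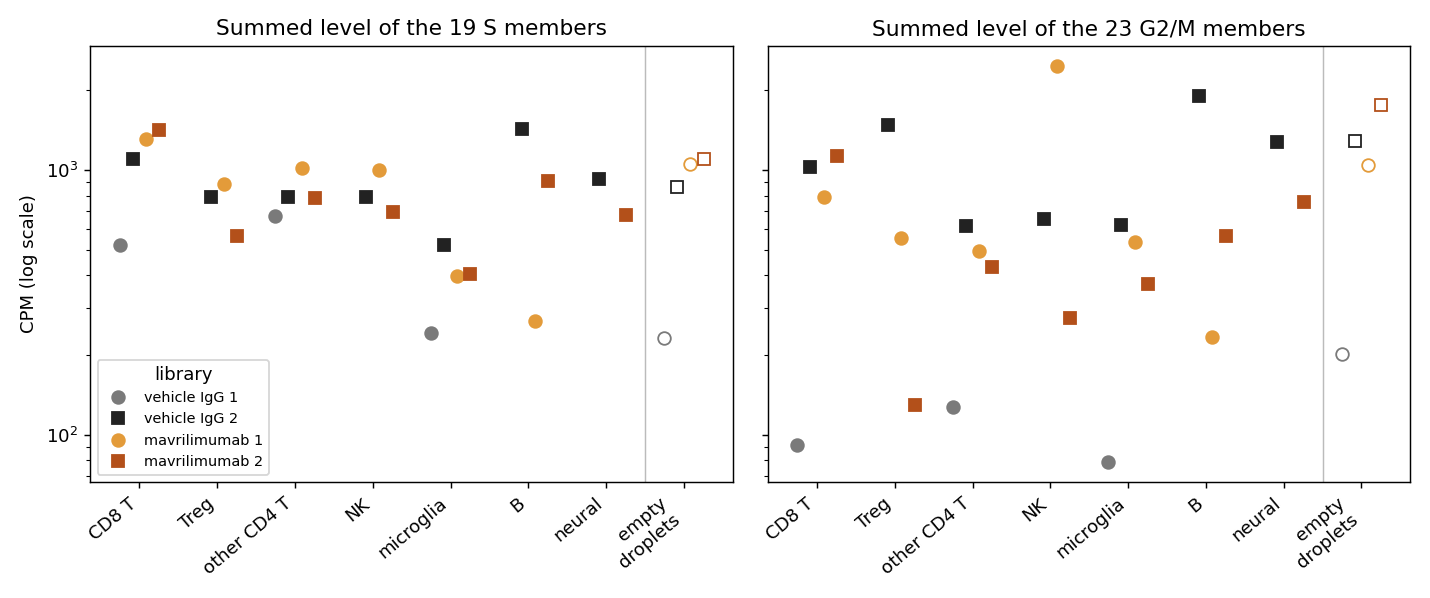
Summed CPM (log scale) of the S genes (left panel) and the G2/M genes (right panel) in each class and in empty droplets, 1 point per library. The S sums of CD8 T cells lie above those of microglia in every library, and empty droplets hold G2/M sums of 202 to 1757.

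The G2/M message sat in few cells. In CD8 T cells of vehicle IgG 2, mavrilimumab 1 and mavrilimumab 2, the 7.11%, 5.32% and 12.8% of cells with at least 5 distinct G2/M genes held 83.0%, 81.6% and 91.5% of all G2/M UMIs, against 13.4%, 9.24% and 20.8% of all UMIs of the class. In neural cells the 11.1% and 10.5% of such cells held 89.2% and 90.6%, in vehicle IgG 2 and mavrilimumab 2. In vehicle IgG 1, none of the 63 CD8 T cells had 5 distinct G2/M genes.

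To compare shares across depths, each cell was thinned to 1000 UMIs, and cells with at least 2 distinct G2/M genes were counted. The share in neural cells was 11.8% (exact 95% binomial interval 11.3 to 12.4) in vehicle IgG 2 and 10.7% (7.94 to 14.1) in mavrilimumab 2. CD8 T cells gave 7.75% (6.53 to 9.11), 5.43% (4.44 to 6.57) and 8.84% (7.54 to 10.3) in vehicle IgG 2, mavrilimumab 1 and mavrilimumab 2, and 0 of 63 cells in vehicle IgG 1, which allows a share of up to 4.76% by the limit of 3 cells and 5.69% by the exact interval. In vehicle IgG 2 the intervals of neural and CD8 T cells did not overlap, and in mavrilimumab 2 they did. Intervals cover counting error only, and no test was made of these shares. Without thinning, the CD8 T shares were 22.2%, 17.8%, 18.3% and 38.7% in vehicle IgG 1, vehicle IgG 2, mavrilimumab 1 and mavrilimumab 2, and the neural shares 22.9% and 17.4%.

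Microglia gave 1.25% (0.503 to 2.55), 4.44% (2.56 to 7.12), 5.34% (2.70 to 9.35) and 6.39% (4.68 to 8.48). The share was lowest in vehicle IgG 1, as in T cells. Other CD4 T cells gave 0%, 4.63%, 2.68% and 4.12%, with 0 of 95 cells in vehicle IgG 1 (up to 3.16% by the limit of 3 cells and 3.81% by the exact interval). Treg gave 3.85%, 3.19% and 1.32% and NK cells 4.76%, 5% and 2.98% in vehicle IgG 2, mavrilimumab 1 and mavrilimumab 2, where single cells made up the count in Treg of vehicle IgG 2 and mavrilimumab 2 and in NK cells of mavrilimumab 1. The B class gave 9.88% (4.36 to 18.54), 2.49% (0.813 to 5.71) and 3.03% (1.12 to 6.48) in those 3 libraries. CD8 T cells with 2 such genes had more UMIs before thinning than those without any, with medians of 5056 against 2656 in vehicle IgG 2, 7838 against 4556 in mavrilimumab 1 and 24322 against 11752 in mavrilimumab 2. Microglia went this way in vehicle IgG 2 (7068.5 against 3157) and mavrilimumab 1 (11334 against 5355) and the other way in vehicle IgG 1 (6351 against 13491) and mavrilimumab 2 (6197.5 against 11210), as did the B class in mavrilimumab 1 (4837 against 14480). Doublets were not called, and their part in these cells was not tested.

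The genes were found together in the same cells. Among CD8 T cells with at least 2 other G2/M genes, 56.0%, 56.7% and 56.9% also had an Mki67 UMI in vehicle IgG 2, mavrilimumab 1 and mavrilimumab 2, against 3.60%, 3.23% and 2.52% of cells with no other G2/M gene. For Top2a the shares were 58.5%, 58.0% and 56.9% against 3.60%, 4.08% and 2.59%. The median over the 23 G2/M genes was 14.9%, 14.1% and 17.5% against 0.52%, 0.196% and 0.215%. S genes went with G2/M genes less sharply, with medians over the 19 genes of 11.9%, 17%, and 13.6% against 2.32%, 2.81% and 3.23%. Pcna was found in 32.1%, 30% and 33.1% of cells with 2 G2/M genes, and still in 12.2%, 10.8% and 12.6% of cells with none.

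Neural cells showed a like pattern. In vehicle IgG 2, Mki67 was found in 48.6% of neural cells with at least 2 other G2/M genes and in 2.50% of those with none, and Top2a in 52.7% and 2.55%. Mcm5 was found in 9.11% and 1.21%. In mavrilimumab 2, with 42 to 45 such neural cells, Top2a was found in 61.4% and 1.72%, and Mki67 in 31.8% and 1.15%. These shares describe cells of 1 library each, which share its free RNA, and carry no test.

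**Figure D3:**
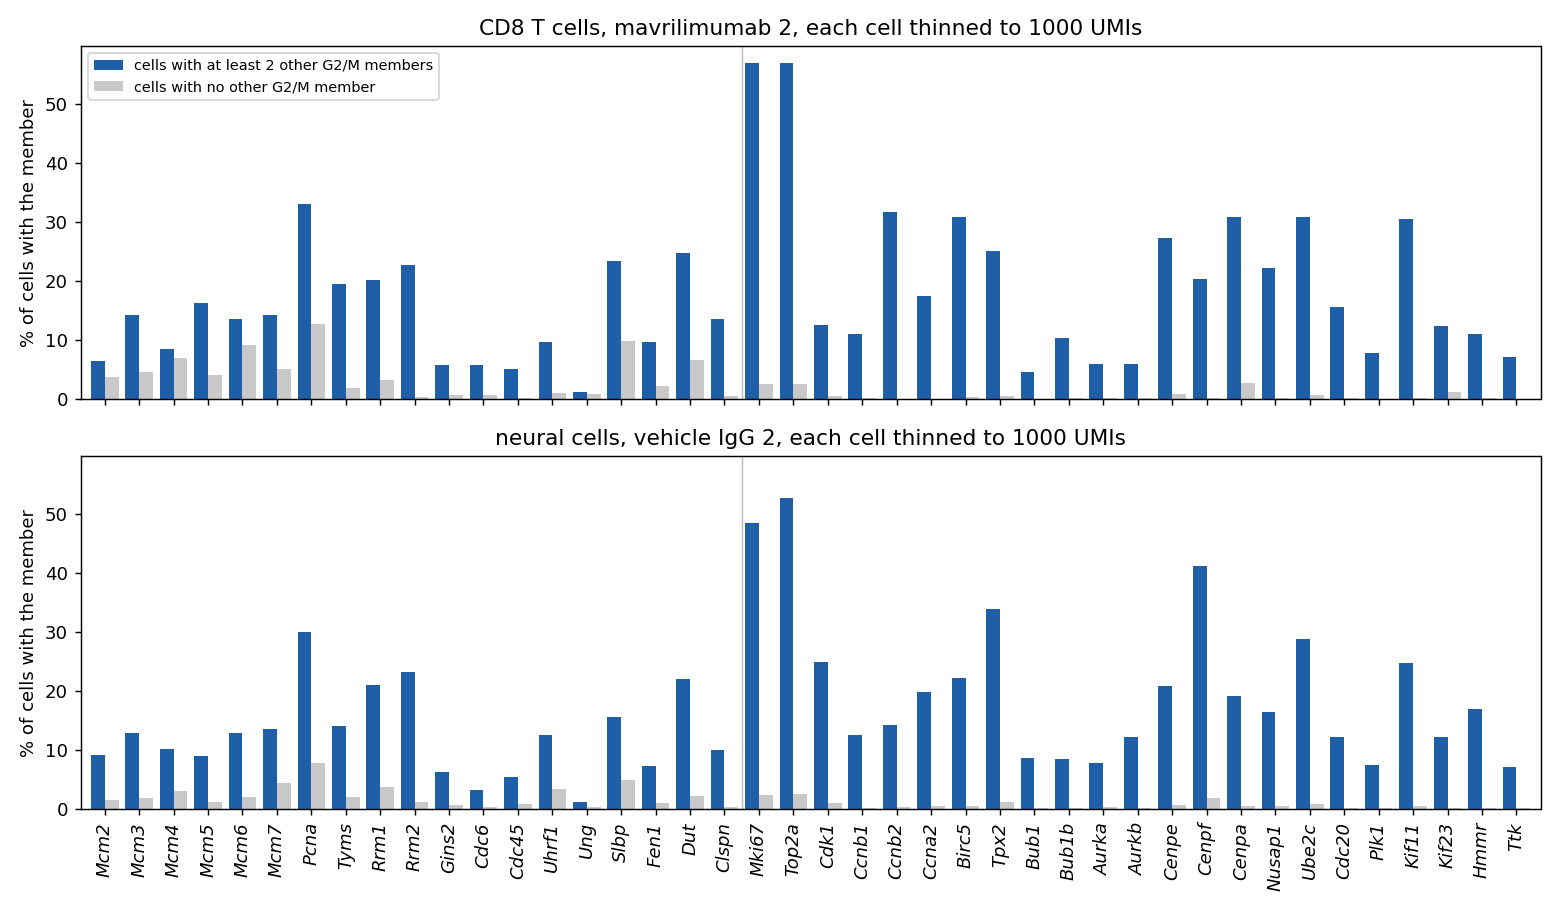
Share of cells with at least 1 UMI of each gene (vertical axis, percent, after thinning each cell to 1000 UMIs) among cells with at least 2 other G2/M genes (blue) and cells with no other G2/M gene (grey), in CD8 T cells of mavrilimumab 2 (top) and neural cells of vehicle IgG 2 (bottom). Mki67 and Top2a stand at 56.9% in the CD8 T cells with 2 other G2/M genes, and the grey bars there have a median of 3.23% over S genes (Pcna 12.6%) and 0.215% over G2/M genes, with S genes such as Rrm2 and Cdc45 below G2/M genes such as Cenpa.

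To ask in which classes the programs stood higher or lower, UMIs were summed per library and class and each class was compared with CD8 T cells in 1 edgeR quasi-likelihood fit with library as a block, with Benjamini-Hochberg adjustment (FDR) over all 14864 genes tested. All 42 genes were tested. None was higher than in CD8 T cells in any of the 6 contrasts by edgeR or by DESeq2.

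Microglia had the lowest median of the 6 contrasts over S genes, and Treg over G2/M genes. In microglia, of the 19 S genes, 16 were lower than in CD8 T cells (all but Mcm3, Pcna and Gins2), and 3 of the 23 G2/M genes were lower (Top2a, Cdc20 and Cenpa), beside 20.7% of all genes tested lower and 24.3% higher. The share of G2/M genes called lower is below that of all genes, so their count is no result about the members. The median log2 fold change was -1.49 over S genes and -0.89 over G2/M genes, beside 0.10 over all genes. All 42 differences were negative. Within libraries the S genes ran this way, with 15 of 19 lower in vehicle IgG 1 and 19 of 19 in each of the others, but in vehicle IgG 1 16 of 23 G2/M genes were higher in microglia. At an unadjusted p under 0.05 there were 17 S and 5 G2/M genes. Such counts are given here and below without the share over all genes, so nothing is read from them.

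The S genes with the largest differences in microglia were Dut, Mcm6 and Rrm2. Dut, which keeps uracil out of DNA by breaking down dUTP, was at 3.73, 26.8, 10.8 and 12.8 CPM in microglia of vehicle IgG 1, vehicle IgG 2, mavrilimumab 1 and mavrilimumab 2, and at 50.7, 108, 121 and 146 in CD8 T cells of the same libraries (log2 fold change -3.16 ± 0.36 SE, FDR = 1.37e-06). Mcm6 was at 14.7, 17.2, 20.9 and 23.5 in microglia and at 85.9, 90.7, 146 and 138 in CD8 T cells (-2.52 ± 0.29, FDR = 1.99e-06). For both genes every microglia library was below every CD8 T library. How many of all genes were separated in this way was not counted, so nothing is read from this.

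Rrm2, the cell-cycle-regulated subunit of ribonucleotide reductase, was at 1.99, 16.5, 11.6 and 8.86 in microglia and at 4.41, 61.1, 52.6 and 69.8 in CD8 T cells (-2.30 ± 0.52, FDR = 0.00153). Mcm5 was at 6.47, 15.8, 13.9 and 14.2 in microglia (-1.87 ± 0.41, FDR = 0.00109). Rrm2 and Mcm5 were lower in microglia within each library, although vehicle IgG 1 was low in both classes.

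Among the G2/M genes, Top2a was at 8.71, 109, 58.1 and 44.5 in microglia (-1.54 ± 0.54, FDR = 0.026). Cdc20, the activator that lets the anaphase-promoting complex act on mitotic substrates, was at 0.871, 6.19, 9.29 and 8.09 in microglia and at 3.30, 19.1, 12.7 and 27.3 in CD8 T cells (-1.40 ± 0.48, FDR = 0.0241). Cenpa, the histone H3 variant of centromeres, was at 4.98, 30.3, 27.9 and 22.3 in microglia and at 25.3, 49.3, 38.9 and 79.9 in CD8 T cells (-1.30 ± 0.31, FDR = 0.00217). All 3 were lower in microglia of each library. Top2a and Cdc20 no longer passed without vehicle IgG 1 or without mavrilimumab 2, and Cenpa passed without any 1 library.

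Mki67 and Pcna did not pass. Mki67 was at 14.4, 90.8, 107 and 44.8 in microglia, above the 9.91 of CD8 T cells in vehicle IgG 1 and below CD8 T cells in the other 3 libraries (-0.95 ± 0.52, FDR = 0.153). Pcna was at 73.4, 153, 85.2 and 116 (-0.61 ± 0.26, FDR = 0.067), and passed without vehicle IgG 1 or without vehicle IgG 2. Without mavrilimumab 2, 11 genes in place of 19 were lower in microglia. When empty-droplet RNA was subtracted from the lymphoid classes in proportion to the microglia markers found in them, 3 were. The microglia sums were left unsubtracted there, so only the CD8 T side of the comparison changed. Counts with a library left out or under another setting are given here and below without the share over all genes. A change in them is therefore no result about the members.

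Neural cells, which existed in number in 2 libraries, were lower than CD8 T cells in 8 S genes (Mcm3, Mcm4, Mcm5, Mcm6, Pcna, Slbp, Fen1 and Dut) and 1 G2/M gene (Cenpa), beside 20.8% of all genes lower and 28.1% higher. These 9 of 42 genes are a share near that of all genes called lower, so the count is no result about the members. Slbp binds the stem-loop of histone mRNA and Fen1 removes flaps from lagging-strand fragments. The median log2 fold change was -0.83 over S genes and -0.23 over G2/M genes, beside 0.11 over all genes. Of the 23 G2/M genes 7 had positive differences, and of the 19 S genes 2 did. Within vehicle IgG 2, 18 of 23 G2/M and 7 of 19 S genes were higher in neural cells, and within mavrilimumab 2, 6 and 2 were.

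Mcm6 was at 46.8 and 34.3 CPM in neural cells of vehicle IgG 2 and mavrilimumab 2, against 90.7 and 138 in CD8 T cells of those libraries (-1.61 ± 0.37, FDR = 0.00182). Dut was at 70.1 and 40.9 against 108 and 146 (-1.61 ± 0.42, FDR = 0.00499). Mcm5 was at 30.4 and 19.8 against 41.5 and 75.1 (-1.39 ± 0.50, FDR = 0.030). Each of these S genes was lower in neural cells in both libraries, and the gap was wider in mavrilimumab 2.

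Pcna was at 160.4 and 103 in neural cells (-0.83 ± 0.34, FDR = 0.0487), and Cenpa at 46.3 and 34.7 against 49.3 and 79.9 in CD8 T cells (-0.95 ± 0.38, FDR = 0.047). Mki67 was at 161 and 81.8 (-0.49 ± 0.63, FDR = 0.552) and Top2a at 199.5 and 102 (-0.53 ± 0.66, FDR = 0.536). In vehicle IgG 2 neural and CD8 T cells held similar levels of Mki67 and Top2a, and in mavrilimumab 2 neural cells held less. In that library the neural class held more microglia marker signal (1973 CPM, 5 of 5 markers above 0) than neural marker signal (1072 CPM), while vehicle IgG 2 had 522 and 1658 CPM, and the part of these cells in the differences was not tested. The 9 calls rested on mavrilimumab 2: 0 genes were called without that library. After subtraction of empty-droplet RNA by either marker list 0 were called too, but the neural sums were left unsubtracted. The subtraction thus changed only the CD8 T side of the comparison, and nothing is read from that count. Pcna also no longer passed without mavrilimumab 1, and Cenpa without vehicle IgG 1 or without mavrilimumab 1.

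**Figure D4:**
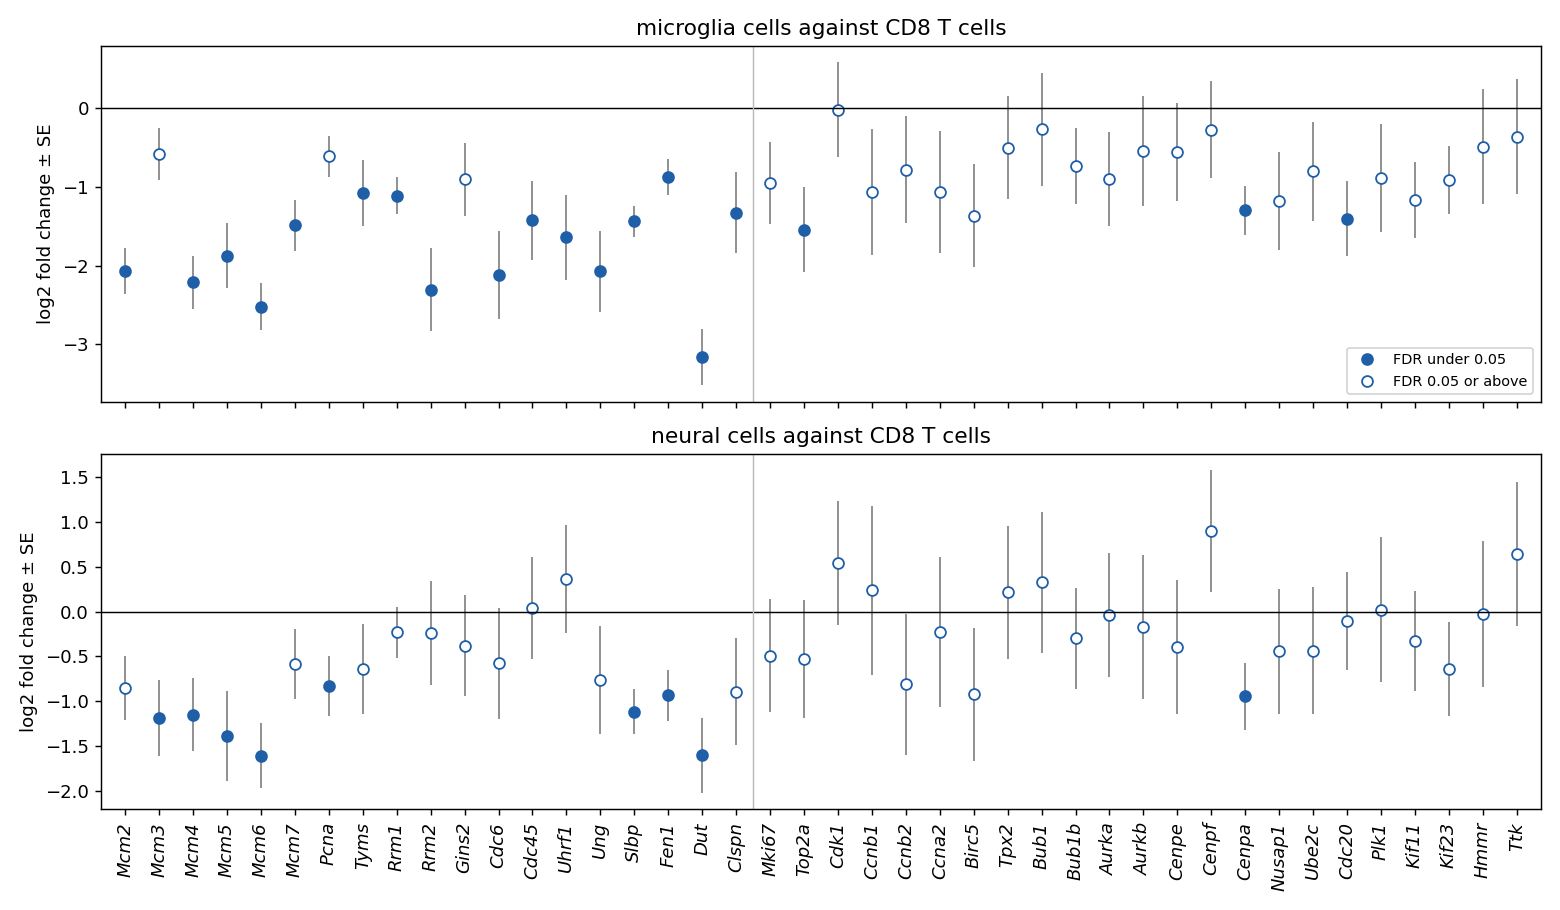
Log2 fold change ± SE of each gene in microglia (top) and neural cells (bottom) against CD8 T cells, with filled points at FDR under 0.05 and S genes left of the grey line. In microglia 16 of 19 S genes are filled and below 0, and in neural cells 8 S genes and Cenpa are.

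In the other lymphoid classes 1 gene passed, in Treg, which is 1 of 42 and near the share of all genes called lower there (2.04%), so the count is no result about the members. Mcm2, a helicase subunit, was at 20.5, 25.6 and 12.7 CPM in vehicle IgG 2, mavrilimumab 1 and mavrilimumab 2 against 37.1, 56.4 and 53.7 in CD8 T cells (-1.40 ± 0.36, FDR = 0.0324), beside 2.47% of all genes higher. All 42 differences were negative, with medians of -1.25 over S and -1.51 over G2/M genes beside -0.11 over all genes, and 15 S and 6 G2/M genes had an unadjusted p under 0.05. The libraries did not run alike: in vehicle IgG 2, 17 of 23 G2/M and 2 of 19 S genes were higher in Treg than in CD8 T cells, against 1 G2/M gene in mavrilimumab 1 and none in mavrilimumab 2. Among the G2/M genes the largest differences were in Ccnb1, the cyclin that activates Cdk1 at entry into mitosis, at 10.2, 4.33 and 0 in Treg (-2.52 ± 1.14, FDR = 0.271), Plk1, a mitotic kinase, at 10.2, 5.06 and 0 (-2.33 ± 0.96, FDR = 0.215), and Hmmr, a spindle protein, at 30.7, 6.14 and 0 (-2.14 ± 0.99, FDR = 0.285). Mki67 was at 246, 123 and 28.5 in Treg against 158, 146 and 168 in CD8 T cells, Top2a at 215, 99.0 and 15.8 against 189, 165 and 190.0, Mcm5 at 20.5, 38.7 and 9.50, and Pcna at 154, 130.04 and 105, with FDR between 0.107 and 0.561. The Treg of vehicle IgG 2 were 26 cells, in which 3 UMIs make 30.7 CPM. The levels of Mcm2, Mcm5, Ccnb1, Plk1 and Hmmr there all lie at or below 3 UMIs. In the Treg of mavrilimumab 2, where Ccnb1, Plk1 and Hmmr were at 0, 3 UMIs make 4.75 CPM. Mcm2 was not called without either mavrilimumab library, and 2 and 3 genes were called without vehicle IgG 1 and vehicle IgG 2. The count was 0 with overlapping gates or with empty-droplet RNA subtracted by neural or by microglia markers, and 10 without cells above the 95th UMI percentile. These counts under other settings stand without the share over all genes, so nothing is read from them.

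In other CD4 T cells 0 of 42 genes passed by edgeR and 1 S gene by DESeq2, beside 0.875% of all genes lower and 0.531% higher by edgeR. With an unadjusted p under 0.05 there were 3 S and 4 G2/M genes. All 42 differences were negative (medians -0.55 and -1.11, beside -0.05 over all genes), although in vehicle IgG 1 15 of 19 S and 14 of 23 G2/M genes were higher than in CD8 T cells. Ube2c showed the largest, at 0, 33.0, 24.0 and 17.9 CPM in vehicle IgG 1, vehicle IgG 2, mavrilimumab 1 and mavrilimumab 2 (-1.65 ± 0.66, FDR = 0.353). Ccnb2, a further mitotic cyclin, was at 0.887, 26.4, 13.5 and 9.54 (-1.51 ± 0.72, FDR = 0.478), and Ccnb1 at 0, 9.90, 6.39 and 5.37 (-1.45 ± 0.87, FDR = 0.632). Vehicle IgG 1 was lowest for all 3.

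Among the S genes of other CD4 T cells the largest differences were in Clspn, an adaptor of the replication checkpoint, at 1.77, 26.4, 22.0 and 16.1 (-0.99 ± 0.51, FDR = 0.516), Uhrf1 at 7.98, 16.5, 22.4 and 10.7 (-0.95 ± 0.56, FDR = 0.622), and Cdc45, a part of the active helicase, at 2.66, 3.30, 8.64 and 7.46 (-0.90 ± 0.50, FDR = 0.587). Mki67 was at 26.6, 95.7, 95.3 and 66.8, and Top2a at 31.0, 82.5, 105 and 78.4. Mcm5 was at 16.8, 23.1, 46.6 and 36.4, and Pcna at 147, 122, 155 and 147. The FDR of these 4 lay between 0.56 and 0.853.

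In NK cells 0 of 42 genes passed by edgeR and 1 S gene by DESeq2, beside 2.07% of all genes lower and 1.64% higher by edgeR, with 12 S and 3 G2/M genes at an unadjusted p under 0.05. All 42 differences were negative (medians -1.07 over S and -0.84 over G2/M genes, beside -0.05 over all genes), although in mavrilimumab 1, with 20 NK cells, 22 of 23 G2/M and 6 of 19 S genes were higher than in CD8 T cells. Cdc6 was at 4.82, 0 and 2.85 CPM in vehicle IgG 2, mavrilimumab 1 and mavrilimumab 2 (-2.08 ± 0.66, FDR = 0.0999), Clspn at 15.8, 33.0 and 8.75 (-1.47 ± 0.60, FDR = 0.237), and Uhrf1 at 21.4, 16.5 and 8.75 (-1.44 ± 0.63, FDR = 0.297). Aurka, a kinase of the spindle poles, was at 6.89, 8.24 and 1.22 (-1.95 ± 0.81, FDR = 0.255), Ccnb1 at 12.4, 16.5 and 1.42 (-1.59 ± 1.01, FDR = 0.592), and Cdc20 at 10.3, 24.7 and 5.09 (-1.43 ± 0.59, FDR = 0.248). Mki67 was at 90.3, 502 and 41.7, Top2a at 95.8, 494 and 42.3, Mcm5 at 29.6, 41.2 and 33.6, and Pcna at 141, 107 and 109.7. In the 20 NK cells of mavrilimumab 1, where Mki67 and Top2a were high, 1 cell held 97.3% of the G2/M UMIs. Without vehicle IgG 1 or without vehicle IgG 2, 1 gene was called in NK cells.

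In the B class 0 of 42 genes passed by edgeR or DESeq2, beside 5.36% of all genes lower and 6.73% higher by edgeR, with 3 S and 0 G2/M genes at an unadjusted p under 0.05. Medians were -0.51 over S and -0.49 over G2/M genes, beside -0.10 over all genes. In vehicle IgG 2, 23 of 23 G2/M and 13 of 19 S genes were higher than in CD8 T cells, and in both mavrilimumab libraries all 42 were lower. Mcm4 was at 57.3, 13.4 and 60.0 CPM (-1.002 ± 0.37, FDR = 0.0952), Mcm7, a further helicase subunit, at 74.6, 6.35 and 43.2 (-0.86 ± 0.37, FDR = 0.155), and Uhrf1 at 34.4, 5.65 and 19.8 (-0.85 ± 0.59, FDR = 0.44). Plk1 was at 20.1, 1.76 and 2.40, Cdc20 at 25.8, 3.18 and 4.798, and Bub1, a kinase of the spindle checkpoint, at 17.2, 1.41 and 2.40, with FDR between 0.224 and 0.561. Mki67 was at 338, 64.2 and 105, Top2a at 249, 38.5 and 124, Mcm5 at 68.8, 8.47 and 34.8, and Pcna at 238, 40.2 and 172. Mavrilimumab 1, the library in which B markers were high, had the lowest level of each of these genes. Without vehicle IgG 2, 5 genes were called, a count that stands without the share over all genes.

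Mavrilimumab was compared with vehicle IgG within each class by the same test, with 2 libraries against 2 where a class had at least 20 cells in all 4. In CD8 T cells 0 of 42 genes passed by edgeR or DESeq2, where 0.0% of the 12108 genes tested were called, with 4 S and 0 G2/M genes at an unadjusted p under 0.05. All 42 differences were positive, with medians of 0.76 over S and 0.68 over G2/M genes beside -0.02 over all genes. Vehicle IgG 1 was the low library. Without it the medians were 0.36 and 0.02, and 15 of 23 G2/M and 19 of 19 S differences were positive, and without vehicle IgG 2 the medians were 1.65 and 4.33. Markers of other cells differed between these libraries too. In CD8 T cells 5 of 5 microglia markers were above 0 in every library and summed to 3093 CPM in vehicle IgG 1, where T cell markers summed to 3078, and to 497 in vehicle IgG 2 and 799.8 and 1092 in mavrilimumab. Neural markers summed to 1.10 and 429 in vehicle IgG and to 0.437 and 7.57 in mavrilimumab, with Sox2, Nes and Dcx at 0 in vehicle IgG 1 and mavrilimumab 1. Empty-droplet RNA was put at 38.1% and 55.7% of the UMIs in vehicle IgG and at 35.8% and 26.4% in mavrilimumab by microglia markers, and at 3.50% and 24.7% and at 3.15% and 1.70% by neural markers. The neural-marker values of vehicle IgG 1 and mavrilimumab 1 rest on 1 and 4 marker UMIs. Subtracted by neural markers, all 42 differences were positive (medians 0.62 and 0.66), and by microglia markers 18 of 19 S and 20 of 22 G2/M differences were positive (medians 0.66 and 0.74, beside 0.13 over all genes), and 0 passed either way.

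Mcm3 was at 33.0 and 54.7 CPM in vehicle IgG and at 95.5 and 94.3 in mavrilimumab (1.12 ± 0.30, FDR = 0.901), and Mcm5, given above, differed by 1.36 ± 0.53 (FDR = 0.901). Clspn was at 2.20 and 28.8 in vehicle IgG and at 34.8 and 45.0 in mavrilimumab (1.21 ± 0.88, FDR = 0.923). The groups did not overlap for these 3 genes, which were named for having the largest S differences. The share of all genes without overlap was not counted, so nothing is read from this. Ccnb2 was at 0 and 34.8 in vehicle IgG and at 23.4 and 51.7 in mavrilimumab (0.95 ± 1.23, FDR = 0.961), and Ccna2, a cyclin of S phase and G2, at 0 and 29.4 against 23.5 and 36.3 (0.84 ± 1.16, FDR = 0.961). Mki67 differed by 0.86 ± 1.07 (FDR = 0.958), Top2a by 0.70 ± 0.84 (FDR = 0.957) and Pcna by 0.51 ± 0.49 (FDR = 0.943), and the groups overlapped for all of these. With 1 library left out, the differences ranged from 0.23 to 11.8 for Ccnb2, 0.13 to 11.4 for Ccna2, 0.079 to 4.09 for Mki67, 0.57 to 4.29 for Clspn and 0.91 to 2.58 for Mcm5. They ranged from 0.0044 to 2.80 for Top2a, 0.059 to 1.44 for Pcna and 0.88 to 1.62 for Mcm3.

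In Treg, vehicle IgG 2 stood alone against the 2 mavrilimumab libraries, and so it did in NK cells and the B class, since vehicle IgG 1 had 13, 4 and 8 such cells. A fit then assumes that the lone library varies like the others and is no test of treatment, so only levels are described for these classes. Its counts, 2 in Treg beside 3.39% of 8947 genes, 1 in NK cells beside 10.5% of 11409 and 0 in the B class beside 0.0% of 10661, are given for completeness, and DESeq2 called 0 in all 3. In Treg, Nusap1, a spindle microtubule protein, was at 92.2 CPM in vehicle IgG 2 and at 17.7 and 6.33 in mavrilimumab 1 and 2, and Ube2c at 113 against 25.3 and 4.75. Of the 26 Treg of vehicle IgG 2, 2 cells held 82.1% of all G2/M UMIs. Neural markers moved with these values: 6 of 6 were above 0 in the Treg of vehicle IgG 2, where they summed to 656 CPM, against 1.44 and 19.0025 in mavrilimumab 1 and 2, and their part in the differences was not tested.

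Mki67 and Top2a, given above for Treg, were highest in vehicle IgG 2 and lowest in mavrilimumab 2, as was Pcna, while Mcm5 was highest in mavrilimumab 1. Rrm2 was at 41.0 in vehicle IgG 2 and at 28.5 and 7.92 in mavrilimumab, and Clspn at 20.5 against 15.2 and 0. Uhrf1 was at 0, 18.4 and 0, below the 30.7 CPM that 3 UMIs make in the Treg of vehicle IgG 2.

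In other CD4 T cells 0 genes passed by edgeR or DESeq2, where 0.0% of the 10370 genes tested were called, with 2 S and 2 G2/M genes at an unadjusted p under 0.05 by edgeR and none by DESeq2. Medians were 0.45 over 19 S and 0.91 over 22 G2/M genes, beside 0.01 over all genes. Microglia markers in these cells summed to 2441 and 452 CPM in vehicle IgG and to 834 and 1153 in mavrilimumab. Neural markers summed to 0 and 646 in vehicle IgG and to 0.376 and 13.1 in mavrilimumab. Their part in the differences was not tested. Mcm5 differed by 1.18 ± 0.32 and Cdc45 by 1.55 ± 0.70 (FDR = 0.9997 for both). Both had the mavrilimumab libraries above the vehicle IgG libraries, but the share of all genes separated in this way was not counted. Tyms, which makes thymidylate for DNA, was at 14.2 and 16.5 against 36.6 and 21.5 (1.00 ± 0.40, FDR = 1.0). Aurkb, a kinase of the chromosomal passenger complex, was at 0 and 3.30 against 7.89 and 6.26, and Ccna2 at 0 and 9.90 against 13.2 and 13.1. Ttk, a spindle checkpoint kinase, was at 0.887 and 3.30 against 4.70 and 4.77 (FDR = 0.9997 for all). In these cells 3 UMIs make 2.66 CPM in vehicle IgG 1 and 9.90 in vehicle IgG 2. The vehicle IgG values of Aurkb, Ccna2, Ttk and Cdc45 all lie at or below 3 UMIs. Mki67 differed by 0.60 ± 0.61, Top2a by 0.87 ± 0.49 and Pcna by 0.21 ± 0.24, and the groups overlapped for Mki67, Top2a and Pcna. With 1 library left out Top2a ranged from 0.22 to 1.63.

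In NK cells, where mavrilimumab 1 had 20 cells, Cenpf, a kinetochore protein, was at 65.5 CPM in vehicle IgG 2 and at 140.0 and 7.12 in mavrilimumab 1 and 2, so the mavrilimumab libraries lay on both sides of the vehicle IgG library. Mki67 and Top2a had mavrilimumab 1, where 1 cell held 97.3% of the G2/M UMIs, far above and mavrilimumab 2 below vehicle IgG 2. Mcm6 was at 72.4 against 157 and 103, Uhrf1 at 21.4 against 16.5 and 8.75, and Ung, the glycosylase that removes uracil from DNA, at 6.89 against 0 and 3.26. Neural markers summed to 519.5 CPM in the NK cells of vehicle IgG 2 and to 0 and 3.26 in those of mavrilimumab 1 and 2. Their part in the differences was not tested.

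In microglia 0 genes passed by edgeR or DESeq2, where 0.0% of the 12412 genes tested were called, and none had an unadjusted p under 0.05. Medians were 0.28 over 18 S and 0.60 over 23 G2/M genes, beside -0.03 over all genes. Neural markers in these cells summed to 26.5 and 438 CPM in vehicle IgG and to 11.6 and 31.8 in mavrilimumab. T cell markers summed to 6.22 and 70.9 in vehicle IgG and to 69.7 and 36.7 in mavrilimumab. Their part in the differences was not tested. Fen1 was at 11.6 and 15.8 CPM in vehicle IgG and at 27.1 and 18.4 in mavrilimumab (0.80 ± 0.37, FDR = 0.998), and Mcm3 at 31.2 and 39.9 against 59.6 and 46.8 (0.65 ± 0.28, FDR = 0.998). Ccnb1 was at 0.124 and 4.82 against 13.2 and 7.57 (2.50 ± 1.50, FDR = 0.998), where 0.124 is 1 UMI, below the 0.373 CPM that 3 UMIs make in that library, and Cdc20 at 0.871 and 6.19 against 9.29 and 8.09 (1.57 ± 1.00, FDR = 0.998). The groups did not overlap for these 4 genes, which were named for large differences. The share of all genes without overlap was not counted, so nothing is read from this. All 4 turned direction under another setting: Fen1 to -1.12 and Mcm3 to -0.72 with empty-droplet RNA subtracted by neural markers, and Ccnb1 to -0.25 and Cdc20 to -0.073 with overlapping gates. With 1 library left out the difference ranged from 1.10 to 6.10 for Ccnb1, from 0.56 to 3.30 for Cdc20 and from 0.33 to 4.24 for Ccna2. Ccna2 (1.51 ± 1.26) was at 0.746 and 11.7 against 20.1 and 10.1, and Cdc6 (0.80 ± 1.10) at 0.622 and 3.44 against 3.10 and 2.57. Mki67 differed by 0.63 ± 0.93, Top2a by -0.08 ± 1.09, Mcm5 by 0.46 ± 0.53 and Pcna by -0.09 ± 0.42, with the groups overlapping in each. Without vehicle IgG 1, 1 gene was called, Top2a, but vehicle IgG 2 then stood alone and the spread came from the other libraries, so nothing is read from it.

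In the B class, Hmmr was at 60.2 CPM in vehicle IgG 2 and at 3.18 and 4.20 in mavrilimumab, Aurka at 43.0 against 2.12 and 4.20, and Aurkb at 63.1 against 3.53 and 8.996. Of the 81 B-class cells of vehicle IgG 2, 7 held 91.1% of the G2/M UMIs. The cells differed in other markers as well: the B markers given above were at 364 in vehicle IgG 2 against 49670 and 1313, and neural markers summed to 315 there, with 6 of 6 above 0, against 0.353 and 23.4 in mavrilimumab, with Sox2, Sox11 and Dcx at 0 in both. Their part in the differences was not tested. Tyms was at 94.6 against 7.06 and 34.2, and Cdc45 at 25.8 against 1.41 and 8.996. Ung was at 0 in vehicle IgG 2, where 3 UMIs make 8.60 CPM, and at 4.94 and 11.4 in mavrilimumab. Mki67, Top2a, Mcm5 and Pcna were highest in vehicle IgG 2 and lowest in mavrilimumab 1.

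Whether the treatment difference of a class differed from that in CD8 T cells was tested as an interaction of class and treatment by edgeR. In other CD4 T cells and microglia, which had 2 libraries per group, 0 of 42 genes passed, with 3 S genes and 1 S gene at an unadjusted p under 0.05. No share over all genes is given beside these counts, so they are no result about the members. In Treg, NK cells and the B class the vehicle IgG side would again be 1 library, and no interaction is given.

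The T cell receptor libraries allowed CD8 T cells of expanded clones (3 or more cells with the same productive TRA and TRB CDR3 sequences) to be compared with cells whose clone was found once. This was possible in the expression libraries labelled mavrilimumab 1 and mavrilimumab 2, since vehicle IgG 1 had 3 expanded CD8 T cells and no vehicle IgG 2 receptor library was analysed here. The summed G2/M level was 866 CPM in 786 expanded cells against 749 in 643 single cells of mavrilimumab 1, and 1559.9 in 322 against 994 in 1050 of mavrilimumab 2. The S sums were 1326 against 1281 and 1581 against 1404. Both sums were higher in expanded clones in both libraries.

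By edgeR with library as a block, 0 of 42 genes passed, beside 0.504% of the 10905 genes tested called, and DESeq2 called 0. All 23 G2/M differences were positive, with a median of 0.41 beside -0.000523 over all genes. Of them 12 had an unadjusted p under 0.05 by edgeR and 2 by DESeq2. Of the 19 S differences 9 were positive (median -0.01), and 4 had such a p by edgeR and none by DESeq2. These counts at an unadjusted p stand without the share over all genes, so nothing is read from them. Nusap1 was at 32.2 in expanded against 23.5 in single clones of mavrilimumab 1 and at 59.9 against 29.3 in mavrilimumab 2 (0.75 ± 0.16, FDR = 0.123). Mki67 was at 169 against 129.0 and at 226 against 148 (0.46 ± 0.10, FDR = 0.134), and Top2a at 180.1 against 162 and at 276 against 165 (0.41 ± 0.15, FDR = 0.307). Each was higher in expanded clones in both libraries.

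Ttk was at 7.62 against 3.91 and at 9.62 against 6.03 (0.73 ± 0.30, FDR = 0.356), and Aurkb at 16.4 against 11.7 and at 25.9 against 15.2 (0.61 ± 0.18, FDR = 0.219). Of the S genes, Tyms was at 53.9 against 36.6 and at 67.8 against 49.8 (0.44 ± 0.11, FDR = 0.151), and Rrm2 at 57.0 against 38.8 and at 87.7 against 64.6 (0.44 ± 0.10, FDR = 0.147). Mcm5, as an example of the helicase genes, was at 65.5 against 74.3 and at 86.0 against 74.7 (-0.02 ± 0.12, FDR = 0.972), and Pcna at 182 against 187 and at 219.9 against 211 (-0.04 ± 0.10, FDR = 0.92). Ung was lower in expanded clones in both libraries, at 7.91 against 11.7 and at 11.3 against 14.4 (-0.49 ± 0.23, FDR = 0.419). The libraries differed for 4 G2/M genes, named after their values were seen, among them Cdc20, which was at 9.60 against 17.03 in mavrilimumab 1 and at 37.2 against 25.4 in mavrilimumab 2, and Bub1b, Cenpf and Ube2c, also lower in expanded clones of mavrilimumab 1 and higher in those of mavrilimumab 2.

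**Figure D5:**
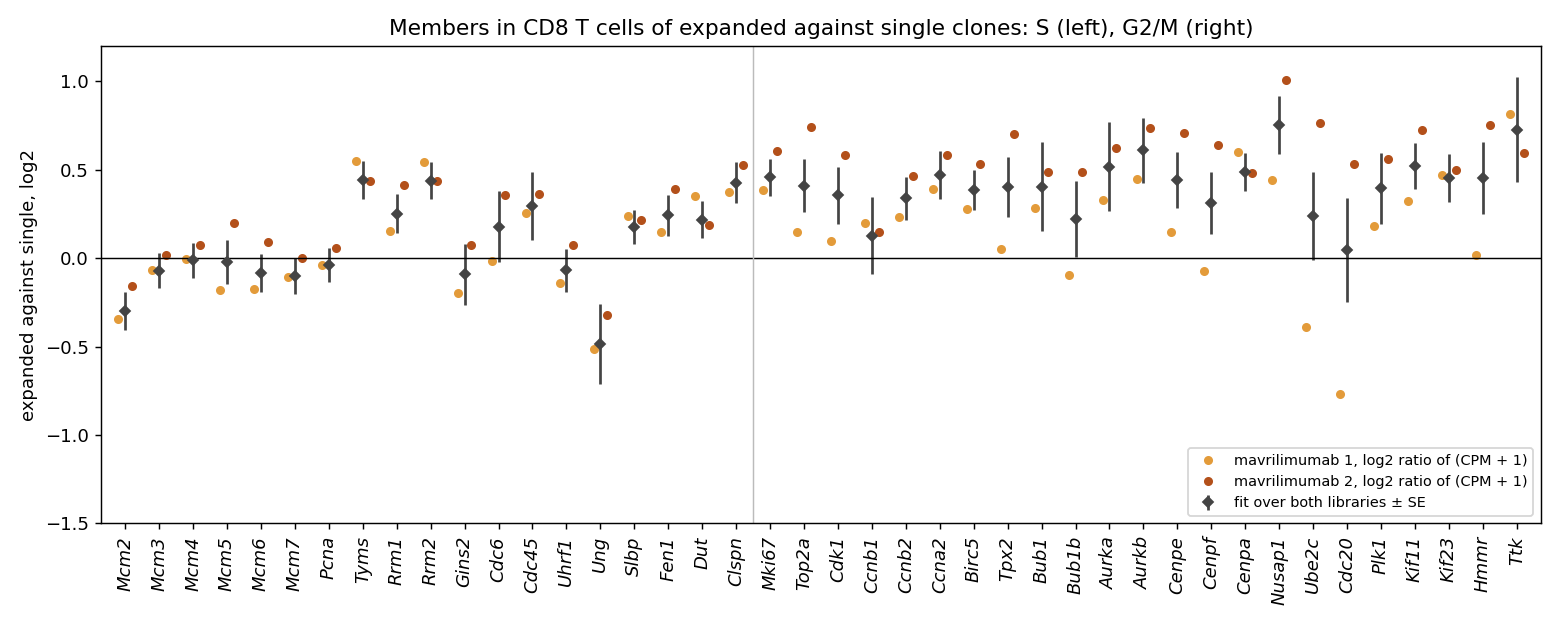
Log2 difference between expanded and single clones of CD8 T cells for each gene, with diamonds for the fit over both libraries ± SE and circles for the log2 ratio of (CPM + 1) in each library, S genes left of the grey line. The diamonds of all 23 G2/M genes lie above 0 and those of the S genes lie on both sides. Circles of mavrilimumab 1 lie below 0 for Bub1b, Cenpf, Ube2c and Cdc20.

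CD8 T cells were also split by a UMI of Pdcd1, a receptor that T cells carry after activation and in exhaustion, and, among cells without it, by a UMI of Gzmb, a cytotoxic granule protease. The share of cells with at least 2 G2/M genes, thinned as above, was 8.19% (5.32 to 11.9), 6.88% (5.04 to 9.12) and 11.9% (9.18 to 15.1) in Pdcd1 cells of vehicle IgG 2, mavrilimumab 1 and mavrilimumab 2. In Gzmb cells it was 9.06% (6.75 to 11.8), 5.58% (3.68 to 8.07) and 12.9% (10.3 to 15.8), and in cells with neither 6.84% (5.28 to 8.68), 4.08% (2.77 to 5.78) and 2.53% (1.45 to 4.07). Cells with neither gene had the lowest share in all 3 libraries, and the intervals were separate from those of the other cells in mavrilimumab 2 only. Median UMIs per cell there were 14489, 15216 and 9752 in Pdcd1 cells, Gzmb cells and cells with neither. They were 2908, 3084.5 and 2479 in vehicle IgG 2, and 4538, 4920 and 4492 in mavrilimumab 1, where depths lay closer. A UMI of Pdcd1 or Gzmb is found more often in a deeper cell, and the part of depth in these shares was not tested.

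The regulators upstream of the members were followed as a list of 36 genes (cyclins D and E and their kinases, their inhibitors, E2F and retinoblastoma proteins, Foxm1, Mybl2 and others). Against CD8 T cells, 18 were lower and 4 higher in microglia, 8 lower and 5 higher in neural cells, 3 lower in the B class and 1 lower in Treg, and 0 passed in other CD4 T or NK cells, where 6 and 11 had an unadjusted p under 0.05. Over all genes, 20.7% were lower and 24.3% higher in microglia, 20.8% and 28.1% in neural cells, 5.36% and 6.73% in the B class and 2.04% and 2.47% in Treg. In neural cells, the B class and Treg the share of regulators called lower was thus near the background. The share called higher in microglia and neural cells was below it. Those counts are no result about the list, and the genes below are single examples. Ccnd1, the cyclin D of many non-lymphoid cells, was at 132, 219, 203 and 173 CPM in microglia and at 1.10, 137, 1.31 and 6.30 in CD8 T cells of vehicle IgG 1, vehicle IgG 2, mavrilimumab 1 and mavrilimumab 2 (4.44 ± 0.90, FDR = 0.000557). In neural cells Ccnd1 was at 546 and 609 (4.93 ± 0.98, FDR = 0.000664). Ccnd2, a cyclin D that lymphocytes use, was at 3.86, 278, 23.2 and 22.7 in microglia and at 458, 566, 631 and 379 in CD8 T cells (-3.33 ± 0.72, FDR = 0.001). Neural cells of vehicle IgG 2 and mavrilimumab 2 held more of it than CD8 T cells there, at 1114 and 707.

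Vehicle IgG 2 was the high library for Ccnd1 in CD8 T cells and for Ccnd2 in microglia. It was also the library with most neural cells (15570, against 419 in mavrilimumab 2). Cdkn2a, which encodes the inhibitors p16 and ARF, was at 145 and 146 in neural cells and at 32.6 and 6.13 in CD8 T cells of the same libraries (3.44 ± 0.70, FDR = 0.000789). In Treg, Cdk4, the kinase partner of cyclin D, was at 71.7, 84.9 and 63.3 against 166, 150.5 and 138 in CD8 T cells (-1.19 ± 0.19, FDR = 0.00233). In the B class, Rbl1, a retinoblastoma family protein, was at 22.9, 6.70 and 28.2 (-1.29 ± 0.33, FDR = 0.0142) and Ccnd3, a further cyclin D, at 146, 36.3 and 289 (-1.23 ± 0.31, FDR = 0.0136), with the high B marker library lowest for both.

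Between treatments, 0 of the list passed in CD8 T cells (0 at an unadjusted p under 0.05), other CD4 T cells (3) or microglia (2) by edgeR, and 0 passed between expanded and single clones (10). For Treg and NK cells, where vehicle IgG 2 was the only vehicle IgG library, only levels are described. Ccnd1 in Treg was at 225 CPM in vehicle IgG 2 and at 20.2 and 17.4 in mavrilimumab. In NK cells Ccnd1 was at 149 in vehicle IgG 2 and at 0 and 6.92 in mavrilimumab, and Cdkn2a at 29.6 against 0 and 0.407, which is 2 UMIs in all. Neural markers (Sox2, Sox11, Nes, Fabp7, Map1b and Dcx) moved with these differences: 6 of 6 were above 0 in the Treg and NK cells of vehicle IgG 2, where they summed to 656 and 519.5, and they summed to 1.44 and 19.0025 in Treg and to 0 and 3.26 in NK cells of mavrilimumab 1 and 2. Their part in the differences was not tested.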

How the data were processed

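Cells from brains with EPZFTA-RELA ependymoma were profiled by droplet single-cell RNA sequencing with a 5′ kit and paired T cell receptor sequencing, in 2 vehicle IgG and 2 mavrilimumab expression libraries and 3 receptor libraries analysed here. The authors deposited raw UMI counts per gene and barcode, unfiltered. The file headers name Cell Ranger 9.0.1, whereas the submitters' processing notes list Cell Ranger 7 and 7.1.0, Scanpy 1.8.2 and the build mm10. The receptor tables hold assembled contigs with read and UMI counts, also as deposited. Reads that align to more than 1 gene are not counted by Cell Ranger, which can lower genes with near-identical copies.

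Barcodes were taken as cells at 1000 UMIs or more, with 200 to 6000 genes detected and no more than 10% of UMIs from mitochondrial genes. A cell entered a class if it passed exactly 1 of 7 gates: CD8 T (Cd3e, and at least 2 UMIs of Cd8a and Cd8b1), Treg (Cd3e and Foxp3), other CD4 T (Cd3e and Cd4 without Foxp3), NK (no Cd3e, at least 2 UMIs of Ncr1 and Klrb1c), microglia (at least 2 of P2ry12 and Tmem119), B (at least 2 of Cd79a and Cd79b) and neural (no Ptprc, at least 3 of Nnat and Mdk). Doublets were not called. One further marker gene of the B class is not reported here. UMIs were summed per library and class of at least 20 cells. Sums were tested in R 4.3.3 with edgeR 4.0.16 (quasi-likelihood test, TMM, filterByExpr, Benjamini-Hochberg FDR under 0.05 over all genes tested), with library as a block between classes and between clones and no block between treatments. DESeq2 1.42.0 was an alternative. Fold changes are log2 with SE. The scripts were tested on simulated counts.

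The members and lists were chosen with earlier results of these data known. Named genes were Mki67, Top2a, Mcm5, Pcna and, per contrast, the 3 S and 3 G2/M genes with the largest difference among those past the threshold, or among all tested if none passed; of the 36 regulators, the 2 with the largest difference past it. Other settings are given at the end.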

Additional observations from a re-analysis of the deposited data

How the results depend on the processing

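Counts of genes called between classes and treatments depended on a few settings, and in each case the cause was not tested. Shares of all genes called under these settings are not given. A change in a count, also between clones, is therefore no result about the members. Against CD8 T cells, the 1 gene lower in Treg became 3 by DESeq2, 0 with overlapping gates, 10 without cells above the 95th UMI percentile, 0 with empty-droplet RNA subtracted by neural or by microglia markers, and 2 with no maximum of genes per cell. Other CD4 T cells (0) gave 1 by DESeq2 and 3 without cells above the 95th percentile, and NK cells (0) gave 1 by DESeq2. The B class (0) gave 2 with overlapping gates and 2 without cells above the 95th percentile. Microglia (19) gave 3 with subtraction by microglia markers. Neural cells (9) gave 4 with mitochondrial UMIs at most 5%, 0 with either subtraction, and 5 with no maximum of genes. Neural sums were left unsubtracted in both subtractions, and microglia sums in that by microglia markers. The counts of these classes after such a subtraction therefore compare subtracted with unsubtracted sums. Subtraction by microglia markers and no maximum of genes were added after seeing the data. With 1 library left out, counts ranged from 0 to 3 in Treg, 0 to 1 in NK cells, 11 to 21 in microglia, 0 to 5 in the B class, 0 to 10 in neural cells and 0 to 0 in other CD4 T cells.

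Between treatments, CD8 T cells (0) gave 2 genes with no filter on low counts, and the B class (0) gave 5. In Treg (2), NK cells and the B class the vehicle IgG side was 1 library, so their counts are no test of treatment. In Treg the count was 6 with no filter and 0 with DESeq2 size factors, the DESeq2 test, a minimum of 2000 UMIs, overlapping gates, no cells above the 95th percentile, mitochondrial UMIs at most 5%, and either subtraction. In NK cells (1) it was 0 with DESeq2 size factors, the DESeq2 test, a minimum of 500 UMIs and subtraction by microglia markers, and 2 with no filter, subtraction by neural markers and no maximum of genes. With 1 library left out, counts ranged from 0 to 0 in CD8 T and other CD4 T cells and from 0 to 1 in microglia. Leaving out a library could not be fitted in Treg, NK cells and the B class between treatments, or between clones. Clones gave 8 with no filter.

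The replicate block (2 pairs, on replicate numbers that no source ties to a shared batch) called 0 genes in CD8 T cells, other CD4 T cells and microglia. Deviations of same-numbered libraries correlated at 0.316, 0.134 and 0.312 across 13306, 10452 and 12463 genes.

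Among named genes, directions turned only where the main value had not passed, apart from Cenpf in NK cells. Between classes, Mki67 in NK cells became 0.071 by DESeq2, Top2a in the B class 0.00067 with no maximum of genes, and in neural cells Mki67 became 0.44 and Top2a 0.28 with subtraction by microglia markers and Top2a 0.083 without cells above the 95th percentile. Between treatments, the values of Treg and NK cells come from a fit with 1 vehicle IgG library and are no test. In Treg, Top2a became 1.37 and Mcm5 -0.56 without cells above the 95th percentile, and Mcm5 -0.70 with subtraction by microglia markers. In other CD4 T cells, Mki67 became -0.55 and -0.61 under the same changes. In NK cells, Ung became 0.10, Uhrf1 0.20 and Pcna 0.079 with no maximum of genes, Cenpf 0.053 by DESeq2 and 4.52 with subtraction by microglia markers, and Mcm5 -0.038 and -0.54 with subtraction by neural and microglia markers. In microglia, subtraction by neural markers gave Fen1 -1.12, Mcm3 -0.72, Mki67 -0.66 and Mcm5 -0.52. It put empty-droplet RNA at 84.2% and 25.3% of the UMIs in microglia of vehicle IgG 1 and 2. In mavrilimumab 1 and 2 it put it at 83.8% and 7.13%. Overlapping gates gave Cdc6 -0.54, Ccnb1 -0.25, Cdc20 -0.073 and Mki67 -0.0072. Top2a became 0.038 with no filter, 0.46 without cells above the 95th percentile, 0.016 with no maximum of genes and 0.64 with the replicate block. Leaving out 1 library also turned the direction of some values that had not passed. Mki67 ranged from -1.33 to 0.10 in Treg, -1.34 to 0.71 in NK cells, -0.33 to 0.83 in the B class and -0.66 to 0.26 in neural cells; Top2a from -1.65 to 0.40 in NK cells and -0.74 to 0.063 in neural cells; Pcna from -0.50 to 0.087 in the B class. Between treatments Mki67 ranged from -0.18 to 1.67 in other CD4 T cells, and in microglia Mki67 from -0.24 to 2.34, Top2a from -1.02 to 2.55, Mcm5 from -0.059 to 1.16 and Pcna from -0.48 to 0.52.

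Summed levels, as means over libraries, moved beyond their SD in 3 cases: S in other CD4 T cells to 652 without cells above the 95th percentile, G2/M in other CD4 T cells to 128 with subtraction by microglia markers, and S in microglia to 231 with subtraction by neural markers. Shares of cells with at least 2 G2/M genes, as means over libraries, rose without thinning to 24.3% in CD8 T, 18.9% in Treg, 17.4% in other CD4 T, 22.0% in NK, 12.8% in microglia, 21.8% in B and 20.1% in neural cells. After thinning to 2000 UMIs they were 9.76% in CD8 T, 9.61% in Treg, 8.77% in other CD4 T, 8.35% in NK, 9.86% in B and 14.8% in neural cells. The neural share was 8.43% for at least 3 genes, and the Treg share 1.24% without cells above the 95th percentile. A minimum of 500 UMIs could not change shares thinned to 1000.

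The data allow 2 libraries per group, so that the treatment tests compare pools. Vehicle IgG 1 had 63 CD8 T cells and no Treg, NK, B or neural sum, and classes of 20 to 26 cells let a single cell set a sum. Comparisons between treatments take the labels of the expression libraries as given.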

Other observations

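Cells that passed no gate also held both programs. Their summed S level was 348, 759.6, 1057 and 676 CPM in vehicle IgG 1, vehicle IgG 2, mavrilimumab 1 and mavrilimumab 2, and their G2/M level 137, 776, 709 and 521. Cells that passed several gates, which may be doublets or carry free RNA, held S sums of 267, 1032, 752 and 908 and G2/M sums of 409.9, 1456, 369 and 904. Vehicle IgG 1 had 35 such cells and vehicle IgG 2 had 355. In vehicle IgG 2 the G2/M sum of the cells with several gates was above that of its CD8 T cells (1028) and its neural cells (1273).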
